A study of Mus musculus with 16 samples.

Results

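The regions described here are places on the mouse autosomes where H3K27ac was at least 2-fold higher in both kinds of mature dendritic cell than in their common progenitor. They were 2104 of the 75217 autosomal regions (2.80%) listed as differing between the progenitor and classical dendritic cells, and covered 2495 kb. A region was taken when the mean signal of classical dendritic cells was at least 100 and at least 2-fold that of the progenitor. The listed region that overlapped it most in the comparison of the progenitor with plasmacytoid dendritic cells had to cover at least 50% of it and to show a ratio of at least 2 as well. Of 7359 regions gained in classical dendritic cells, 2559 (34.8%) met the second condition, and 455 of these were dropped because they differed 2-fold or more between multipotent and dendritic progenitors. Of the 455, 194 were higher in the multipotent progenitor and 261 in the dendritic progenitor. Most of the other 4800 gains of classical cells failed for want of a counterpart, since 4407 had no listed region over 50% of them in the comparison with plasmacytoid cells, while 286 showed a ratio between 1 and 2 there and 107 a ratio below 1. These ratios chose the regions, so they are given as a description and were not tested.

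The cells were sorted, carried the strain label C57BL/6 and comprised 4 populations: the multipotent progenitor (MPP), the common dendritic cell progenitor (CDP), and the classical (cDC) and plasmacytoid (pDC) dendritic cell, with no treatment, sex, age or further genotype in the labels. Each type had 2 H3K27ac libraries made by chromatin immunoprecipitation and sequencing. The labels do not say whether cells came directly from animals or from culture, nor whether the 2 libraries were separate preparations, and they name abcam as supplier of the antibody where the protocol names Santa Cruz Biotechnology. The 4 deposited lists pair MPP with CDP, CDP with cDC, CDP with pDC, and cDC with pDC, and give a signal per region for each of 4 libraries, scaled within each list, so that levels were compared within a list only and the read depth is unknown. Libraries carry no replicate number and are called first-listed and second-listed.

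H3K27ac is an acetylation of histone H3 found at active promoters and enhancers, and sites that acquire it during differentiation often lie in or near genes that the mature cell uses. cDC take up antigen and present it to T cells, whereas pDC are known for making type I interferon when they sense nucleic acids of viruses. Both descend from CDP, and both use machinery for antigen presentation and pathogen sensing. Positions are those of the build mm9. No annotation or genome of that build was used here, so no gene is named from a position, no sequence is shown, and the cell types were not checked against their marker genes.

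In the 2 lists that chose them the shared gains carried little H3K27ac in CDP, whereas in the mature cells their level was about that of a typical listed region in cDC and above it in pDC. In the CDP and cDC list the median signal per kb of the 2104 shared gains was 119 and 154 in the 2 CDP libraries, against 398 and 447 over all autosomal regions of the list. The cDC libraries had medians of 337 and 560 at the shared gains, against 308 and 470 over all regions. In the CDP and pDC list the medians were 96.4 and 131 in CDP and 577 and 750 in pDC, where all regions had 391 and 479 in pDC. Low progenitor signal was rarely none, as 1 shared gain was listed at 0 in both CDP libraries of the CDP and cDC list and 3 in the CDP and pDC list.

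**Figure D1:**
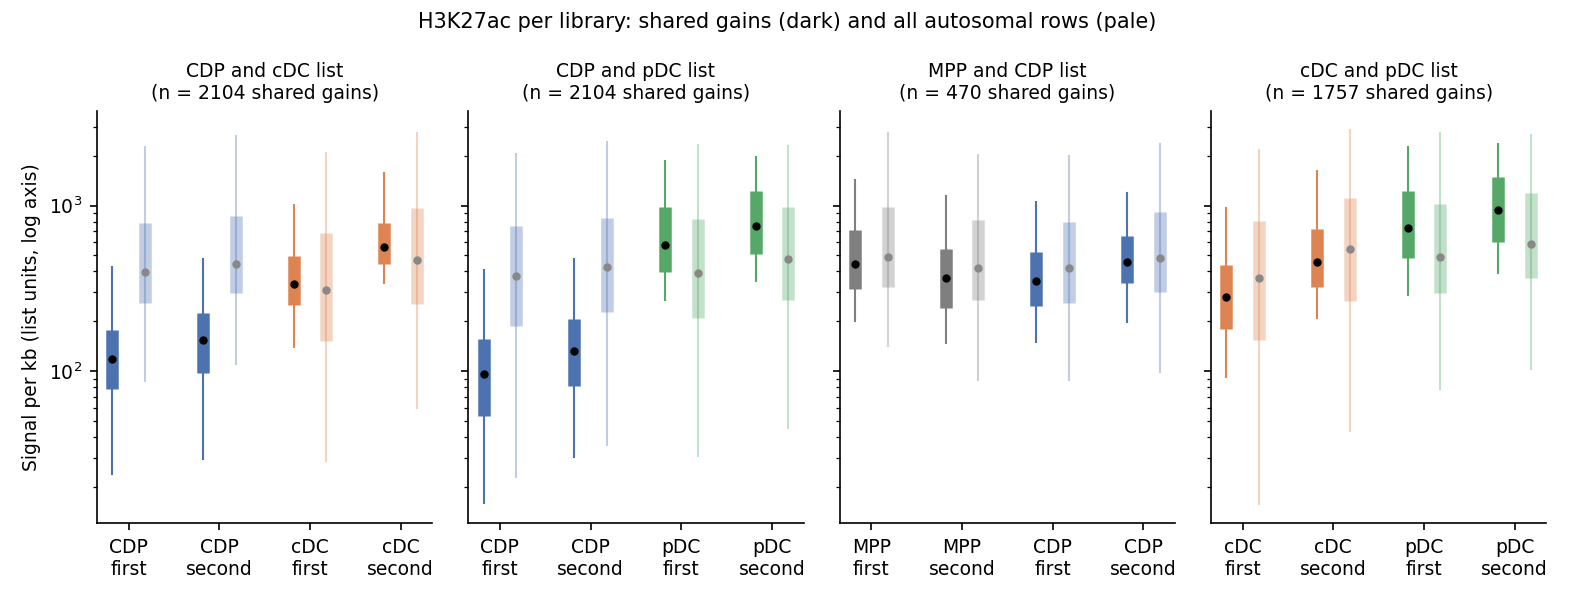
H3K27ac signal per kb (log axis, in the units of each list) in every library, for the shared gains (dark) and for all autosomal regions of the same list (pale). Points are medians, thick bars run between the quartiles and thin lines from the 5th to the 95th percentile. In the 2 lists that chose the shared gains the CDP medians lie between 96.4 and 154, and in the MPP and CDP list, which holds a region for 470 of them, they lie at 350 and 454.

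Gains were larger in pDC than in cDC in the values that chose the regions. The log2 ratio of cDC to CDP had a median of 1.69, with quartiles of 1.30 and 2.23, and that of pDC to CDP a median of 2.46, with quartiles of 1.76 and 3.39. A ratio of at least 8 over CDP was reached by 195 shared gains in cDC, by 701 in pDC and by 175 in both. Of all autosomal regions of the 2 lists, 11.9% were at least 2-fold over CDP in cDC and 26.6% in pDC. At the 633 shared gains with a pDC region at least 2 times as long, the median ratios were 3.13 in cDC and 10.2 in pDC. Where the lengths were within 2 times of each other (1446) they were 3.26 and 4.52. The libraries of cDC differed more than those of pDC. The median SD of log2 signal between the 2 libraries was 0.47 for cDC, 0.40 for CDP and 0.22 for pDC at the shared gains, against 0.39, 0.26 and 0.22 over all autosomal regions. The second-listed cDC library was the higher one by a median log2 ratio of 0.66 at the shared gains and 0.50 over all autosomal regions. For CDP these were 0.34 and 0.19, and for pDC 0.27 and 0.19. The SDs include this shift between libraries, which ran across each list. Both cDC libraries lay above both CDP libraries at 1931 of the 2104 (91.8%, beside 22% of all autosomal regions of that list), and both pDC libraries at 2097 (99.7%, beside 39.8%). The rule chose the shared gains on these same values, so the high shares follow in part from it and support nothing. In the 173 where cDC and CDP libraries were not separate, the first-listed cDC library was the lower one each time. Taken alone, the first-listed cDC library was at least 2-fold above the CDP mean at 1385 shared gains (65.8%) and the second-listed at 2091, and each pDC library alone passed at 1974 (93.8%). Without the second-listed cDC library the same rule found 1290 regions, 1273 of them among the 2104.

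The steepest shared gains, 0.35 to 2 kb long, were almost empty in CDP. They were chosen as the 8 with the largest smaller ratio of the 2 comparisons, and with so little CDP signal the size of the ratio depends on the pseudocount. The region on chr13:48610751-48612750 had 8 and 0 in CDP and 740 and 1535 in cDC, a 228-fold difference (log2 of 7.83 with a pseudocount of 1 and 6.99 with 5). In the cDC and pDC list the same place had 728 and 1520 in cDC and 3518 and 3884 in pDC, so that both pDC libraries lay above both cDC libraries (limma log2 difference of 1.81 ± 0.37 (SE, n = 2 libraries each), adjusted p = 0.00576). On chr13:41522301-41522650, CDP was listed at 0 in both libraries of both lists, cDC at 105 and 133, and pDC at 224 and 326. The pDC values came from listed regions of 2.05 kb and 0.65 kb, beside 2 kb and 0.35 kb for the cDC values.

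At others of the 8 the test did not separate the mature types or could not be made. chr3:105835451-105836000 had 0 and 5 in CDP, 560 and 279 in cDC, and 492 and 597 in pDC beside 0 and 7 in CDP, ratios of 120 and 121 (log2 of 6.91 and 6.92, and of 5.82 and 6.01 with a pseudocount of 5). Its cDC and pDC libraries overlapped in the list that compares them. chr6:54750051-54751350 went from 27 and 4 in CDP to 531 and 1072 in cDC, and from 13 and 5 in CDP to 823 and 1556 in pDC. In the list that compares them pDC was 1.80 times cDC there, which did not pass (adjusted p = 0.151 by limma). Chromosome 8 held 3 of the 8, of which the region from 99141001 to 99141450 had the closest libraries, with 179 and 190 in cDC against 0 and 3 in CDP. In pDC that place had 96 and 129. The region on chr8:76201201-76201750 reached 150 and 297 in cDC from 0 and 4 in CDP, and 133 and 178 in pDC, and was not covered by the cDC and pDC list.

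A pair of the 8 had discordant libraries. On chr2:145689901-145691450, the cDC libraries gave 285 and 1667, and those of CDP 25 and 5, and pDC had 380 and 359 against 4 and 0. On chr8:127319601-127320250, cDC had 94 and 532 against 0 and 8 in CDP, and pDC had 1481 and 4694 against 12 and 18 over a listed region of 3.7 kb. In the first of these the call between cDC and pDC depended on the cDC library: by limma the log2 difference was -1.58 without the first-listed (adjusted p = 0.0141) and 0.97 without the second-listed (adjusted p = 0.0496), and -0.31 with both (adjusted p = 0.762). With either library each mature type remained far above CDP at both places.

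The shared gains had a higher median length than all listed regions, and were close in length to the other cDC gains. The matching pDC region was more often the longer one, as it also was over all matched regions. The median length of the shared gains was 950 bp (quartiles of 550 and 1500 bp), against 500 bp for all autosomal regions of the CDP and cDC list. The 4800 cDC gains that failed the pDC condition had 900 bp. The minimum cDC signal of the rule was set on the whole region and not per kb, so it removed short regions more readily. The 4800 passed that minimum too, whereas the listed regions did not have to. How far it set the difference from the list was not tested. The 2030 distinct regions of the CDP and pDC list that matched the shared gains had a median of 1350 bp. Of these, 629 (31.0%) were 2 kb or longer, against 288 (13.7%) of the shared gains. The pDC region was the longer one at 1297 shared gains (61.6%) and the shorter at 717, beside 55.9% longer among all 51674 autosomal regions with such a match. At 633 shared gains the pDC region was at least 2 times as long, with medians of 2350 bp and 550 bp, and at 25 the region of the CDP and cDC list was at least 2 times as long. So the ratios of a place in the 2 lists often rest on windows of unequal width, and 140 shared gains shared a pDC region with another.

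The 6 longest shared gains did not all lean to the same mature type. chr9:108953201-108962800, the longest at 9.6 kb, went from 8055 and 7921 in CDP to 7950 and 25509 in cDC, and from 7015 and 6962 in CDP to 27565 and 21705 in pDC. The first-listed cDC library lay between the CDP libraries there, so the 2.09-fold mean ratio of cDC came from the second-listed library. chr7:152121801-152129950 (8.15 kb) went from 5204 and 5048 in CDP to 12211 and 18044 in cDC, a 2.95-fold difference. Its pDC libraries gave 16324 and 14853, and those of CDP 4563 and 4492, a 3.44-fold difference. In the cDC and pDC list pDC was 1.85 times cDC at the region on chromosome 9 and 1.52 times at that on chromosome 7. Neither was called by limma (adjusted p of 0.119 and 0.145). chr10:36855551-36861550 (6 kb) was the one of the 6 longest that leaned to cDC, with 8329 and 13268 in cDC against 1307 and 1927 in CDP, and 2501 and 3001 in pDC from 990 and 1504. In the cDC and pDC list it was lower in pDC by limma (log2 difference of -1.34 ± 0.31 (SE, n = 2 each), adjusted p = 0.0104). That call was lost without either pDC library (adjusted p = 0.334 without the first-listed and 0.157 without the second-listed) and without the trend in the variance (0.0633). With equal totals its log2 ratio of pDC to CDP was 0.85, below the 2-fold condition.

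The other 3 of the longest were on chromosomes 1, 8 and 18. chr1:94869551-94876600 reached 3726 and 5409 in cDC from 1270 and 2671 in CDP, and 7918 and 8815 in pDC from 1192 and 2412. chr18:56625351-56631750 reached 3635 and 8618 in cDC from 857 and 1392 in CDP, and 4969 and 4965 in pDC from 414 and 731. Neither was covered over 50% by a region of the cDC and pDC list. On chromosome 8 the 6.85 kb from 123288851 to 123295700 reached 2905 and 4267 in cDC from 1141 and 1674 in CDP, and was matched by a pDC region of 20.9 kb where pDC had 38494 and 40691 and CDP 1568 and 3239.

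**Figure D2:**
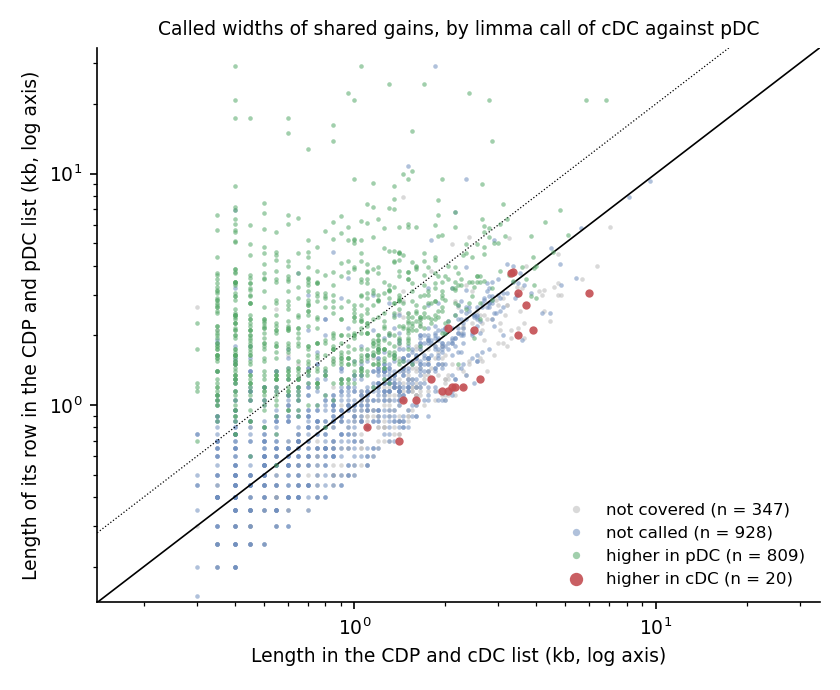
Length of each shared gain in the CDP and cDC list (kb, log axis) against the length of the region that matches it in the CDP and pDC list (kb, log axis), coloured by the limma call of cDC against pDC. The solid line marks equal and the dotted line 2-fold longer pDC regions, and most of the 809 points called higher in pDC lie above the solid line.

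Most shared gains had no other shared gain within 10 kb, though other listed regions also lay near them, as given below. With a gap of less than 10 kb, 441 of the 2104 (21.0%) lay near another, against 43.6% of all 7359 cDC gains among themselves, a set with more regions to be near. They formed 195 groups of 2 or more and 33 of 3 or more, and 1 group held more than 4. That group, on chr8:123277051-123312450, had 9 shared gains with 21.05 kb in all, including the long one named above. Their summed signals were 2666 and 4293 for CDP and 9544 and 12603 for cDC, and the cDC to CDP ratio of single ones ran from 2.22 to 5.11. In the CDP and pDC list the same 9 were matched by 3 regions of 66.2 kb in all, with 7583 and 12998 for CDP and 104325 and 103378 for pDC. These sums cover different lengths, so their ratios were not compared. The cDC and pDC list also held 3 regions for the 9, so that calls there were shared: by limma 8 of the 9 lay in regions called higher in pDC than in cDC, the long one among them (log2 difference of 2.29 ± 0.28 (SE, n = 2 each), adjusted p = 0.000520). The call of the long one was lost without either pDC library (adjusted p of 0.0970 and 0.0969), at log2 differences of 2.31 and 2.27. The stretch was thus divided into 9 gains in cDC and into 3 regions in pDC.

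The next 5 groups had 4 shared gains each and had summed pDC signals of 1.00 to 6.42 times those of cDC in the list that compares the 2 types. On chr11:16831501-16846150 the 4 went from 472 and 503 in CDP to 2735 and 4822 in cDC, over 6.9 kb, and were matched by 2 regions of 12.45 kb in the CDP and pDC list with 416 and 531 for CDP and 21042 and 26721 for pDC. All 4 were called higher in pDC than cDC, on 2 regions of the cDC and pDC list, as were the 4 on chr17:86742151-86765400 and 2 of the 4 on chr11:88936501-88962800. On chr14:70455701-70478750 the cDC libraries summed to 6754 and 9523 and the pDC libraries to 12108 and 14645 in that list, a ratio of 1.64 with separate libraries. Of these 4, 1 had no region there and the other 3 were not called by limma. On chr7:19885451-19912900 the cDC libraries summed to 7394 and 14879 and the pDC libraries to 6918 and 15415 in the same list, a ratio of 1.00 with overlapping libraries and 1 of the 4 called higher in cDC.

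Regions near the shared gains that were not shared gains themselves also tended to be higher in the mature types. Within 10 kb there were 4369 other regions of the CDP and cDC list, of which 55.5% were higher in cDC than CDP, against 42.8% of all autosomal regions. In the CDP and pDC list 62.5% of 3775 such regions were higher in pDC, against 50.1%. Every autosome held shared gains, from 2.06 per 100 listed regions on chromosome 19 to 3.39 on chromosome 16.

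Whether the gain was of one size in the 2 mature types was read from the cDC and pDC list, the one list that did not enter the choice, although it holds the same cDC and pDC libraries and the choice removed places where either type was low. A listed region covered at least 50% of 1757 shared gains (83.5%), against 81.6% of the 4800 cDC gains that failed the pDC condition and 62.1% of all autosomal regions of the CDP and cDC list. The 1757 rest on 1688 distinct regions, so some share a value and a call. H3K27ac was higher in pDC at most of them. On the log2 scale pDC exceeded cDC by a median of 0.99 (quartiles of 0.50 and 1.77), against 0.20 over all autosomal regions of the list. The 4 pairings of a pDC with a cDC library gave medians between 0.58 and 1.63, and the median was 1.5 without the second-listed cDC library. Scaling the 4 libraries to one autosomal total moved all log2 ratios of the list down by a median of 0.46 and gave a median of 0.54 at the shared gains and -0.26 over the list.

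Both pDC libraries lay above both cDC libraries at 1262 of the 1757 (71.8%, beside 42% of all autosomal regions of the list), and the reverse held at 135 (7.68%, beside 26%). A ratio of at least 2 was reached in favour of pDC at 862 (49.1%, beside 28.6%) and in favour of cDC at 22 (1.25%, beside 13.6%). With equal totals these were 610 (beside 23.2%) and 120 (beside 22.3%). The share at least 2-fold higher in pDC was above that of the list on both scales, and the share at least 2-fold higher in cDC below it. The rule required both types to be at least 2-fold over CDP, which regions of the list did not have to be. A shared gain 2-fold higher in one mature type than in the other therefore needed a larger gain in that type. A cDC to CDP ratio of at least 4 was reached by 728 shared gains (34.6%), and a pDC to CDP ratio of at least 4 by 1401 (66.6%). The rule thus bears on the shares of both types, and how far it set them was not tested.

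A test with limma over all 66319 regions of the list, at an adjusted p below 0.05, called 809 of the 1757 (46.0%) higher in pDC, beside 23.3% of all regions. It called 20 (1.14%) higher in cDC, beside 9.32% of all regions, and left 928 uncalled. With equal totals 738 were called higher in pDC, beside 21.4% of all regions, and 149 higher in cDC, beside 27.7%. The regions of the list had been selected as differing on these same libraries, so the p-values are not those of an unselected set. Single libraries moved the counts: without the second-listed pDC library 421 were called higher in pDC. Higher in cDC were 49 and 12 without the first-listed and second-listed cDC library, and 0 and 6 without the first-listed and second-listed pDC library, where the 0 compares with 3 at an unadjusted p below 0.05. Limma without a trend in the variance called 542 and 1.

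The width of the windows moved with these counts, and its part in them was not tested. Of the 617 covered shared gains whose pDC region was at least 2 times as long, 531 (86.1%) were called higher in pDC and 0 higher in cDC, and of the 1120 with lengths within 2 times of each other, 278 (24.8%) and 18. Where the shared gain and the cDC and pDC region each covered at least 50% of the other, which left 1121, the median log2 ratio was 0.64 as deposited and 0.19 with equal totals. There, 274 (24.4%) were called higher in pDC and 20 (1.78%) higher in cDC. All autosomal regions of the CDP and cDC list that were matched in this way gave 10.9% and 18.9%, with a median of -0.31.

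**Figure D3:**
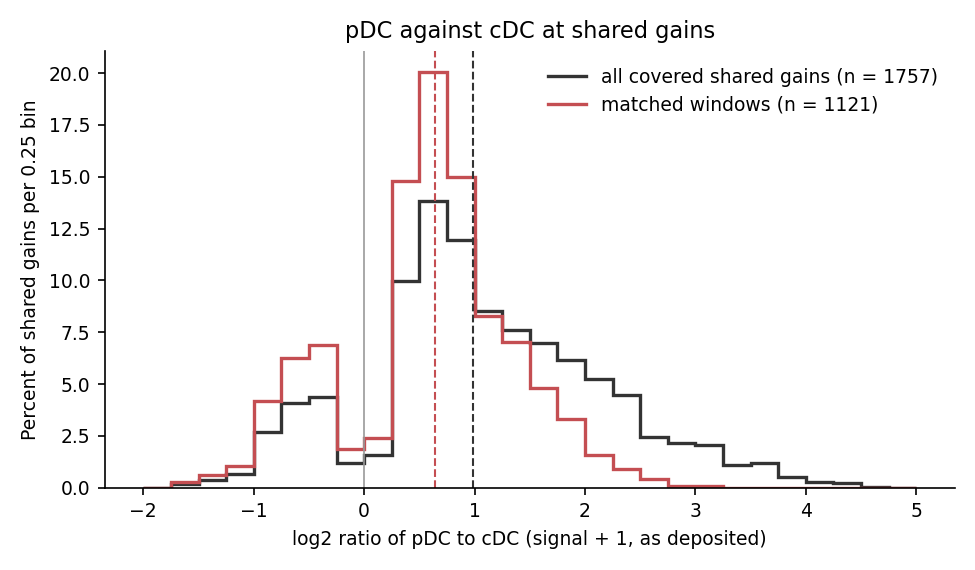
Distribution of the log2 ratio of pDC to cDC in the list that compares them, as percent of shared gains per bin, for all 1757 covered shared gains (black) and for the 1121 whose window matched that of the cDC and pDC region (red). Dashed lines mark the medians of 0.99 and 0.64, and few values fall near 0. The list holds only regions called as differing, and the part of this in the shape was not tested.

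The classes of the limma call differed in other measures. The 809 shared gains called higher in pDC had a median length of 850 bp in the CDP and cDC list and of 2300 bp in the CDP and pDC list, while the 20 called higher in cDC had 2225 bp and 1300 bp. The 928 not called had 900 bp and 1000 bp. In the CDP and cDC list the median cDC signal per kb was 403 in those called higher in pDC, 463 in those not called and 978 in those called higher in cDC, beside CDP medians of 128, 139 and 193. In the CDP and pDC list the median pDC signal per kb was 1057, 511 and 619 in the same order. The classes were defined on these same libraries, so these levels describe the classes and support nothing.

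The 5 largest ratios in favour of pDC were short cDC gains within broad pDC regions. chr19:43274951-43275500 went from 34 and 20 in CDP to 71 and 447 in cDC over 0.55 kb. Over the 4.7 kb region of the cDC and pDC list it gave 190 and 814 for cDC and 9961 and 13116 for pDC, with a limma log2 difference of 4.86 ± 0.57 (SE, n = 2 each; adjusted p = 0.000476). chr8:86822051-86822500 gave 264 and 740 for cDC and 9396 and 12859 for pDC over 3.3 kb. chr11:87089751-87090450 was the place with the closest cDC libraries of the 5, with 604 and 927 in cDC against 14780 and 17959 in pDC over 4.35 kb. chr9:103611301-103611700 had 259 and 565 against 8257 and 8452, and chr5:118532301-118532800 had 351 and 603 against 9501 and 9612. The 5 were chosen among those with both pDC libraries above both cDC libraries. Their adjusted p by limma lay between 0.000199 and 0.000476, and the calls held in every alternative run.

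In favour of cDC the largest ratios were about 3-fold, and fewer of their calls held. They were read over listed regions of 2.25, 1.75, 1.8, 0.45 and 1.25 kb, in the order below. The shared gains themselves were 3.35, 3.3, 2.5, 0.85 and 2.1 kb long, so each ratio describes a part of its shared gain. chr17:34280501-34283850 gave 1627 and 3145 for cDC and 362 and 1144 for pDC, a 3.17-fold difference (limma log2 difference of -1.81 ± 0.54 (SE, n = 2 each), adjusted p = 0.0298). That call was lost without either cDC library, without the first-listed pDC library and without the trend in the variance, where the adjusted p ran from 0.0913 to 0.313. chr16:32977701-32981000 had gains over CDP of 7.19-fold in cDC and, over a 3.7 kb region, 6.07-fold in pDC. In the list that compares them it had the most even libraries, with 1627 and 2556 in cDC against 642 and 734 in pDC (adjusted p = 0.00624 by limma). It was lost without the first-listed pDC library (adjusted p = 0.0760 by limma). chr9:45015551-45018050 had 1132 and 2243 against 354 and 801 (adjusted p = 0.0301 by limma), and was lost in the same 4 alternatives as the region on chromosome 17, with adjusted p from 0.0593 to 0.301. The other two, on chr15:72908701-72909550 and chr18:80825151-80827250, did not pass, with adjusted p of 0.0781 and 0.0622 by limma. Both passed with equal totals (adjusted p of 0.00974 and 0.0145), and the region on chromosome 18 also with a pseudocount of 5 (0.0412) and without the second-listed pDC library (0.0150). With equal totals, however, the log2 ratio of pDC to CDP was 0.97 on chromosome 15, 0.80 on chromosome 18 and 0.86 on chromosome 17, below the 2-fold condition, so these 3 met the rule as deposited and not with equal totals.

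At the 5 regions closest to equal the libraries of cDC and pDC interleaved or nearly so. chr10:81090401-81091450 had 1421 and 1795 in cDC and 1747 and 1804 in pDC, after 2.23-fold and 2.22-fold gains over CDP. chr4:155214701-155215550 had 389 and 622 in cDC and 492 and 625 in pDC, with gains of 3.73-fold and 3.84-fold. chr6:57801351-57801700 had 112 and 96 in cDC and 60 and 129 in pDC. The 2 on chr19:32719951-32720750 and chr1:93355151-93356850 had gains between 2.44-fold and 3.31-fold over CDP. With equal totals the log2 ratio of pDC to CDP was 0.86 on chromosome 10 and 0.98 on chromosome 1, below the 2-fold condition. It was 1.44 on chromosome 19, 1.68 on chromosome 4 and 3.08 on chromosome 6. By limma the SE of the log2 difference at the 5 ran from 0.28 to 0.58, so that differences of that size were not detectable. Larger ones could also go uncalled, as at chr18:80825151-80827250 (log2 difference of -1.43 ± 0.51 (SE, n = 2 each), adjusted p = 0.0622 by limma).

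**Figure D4:**
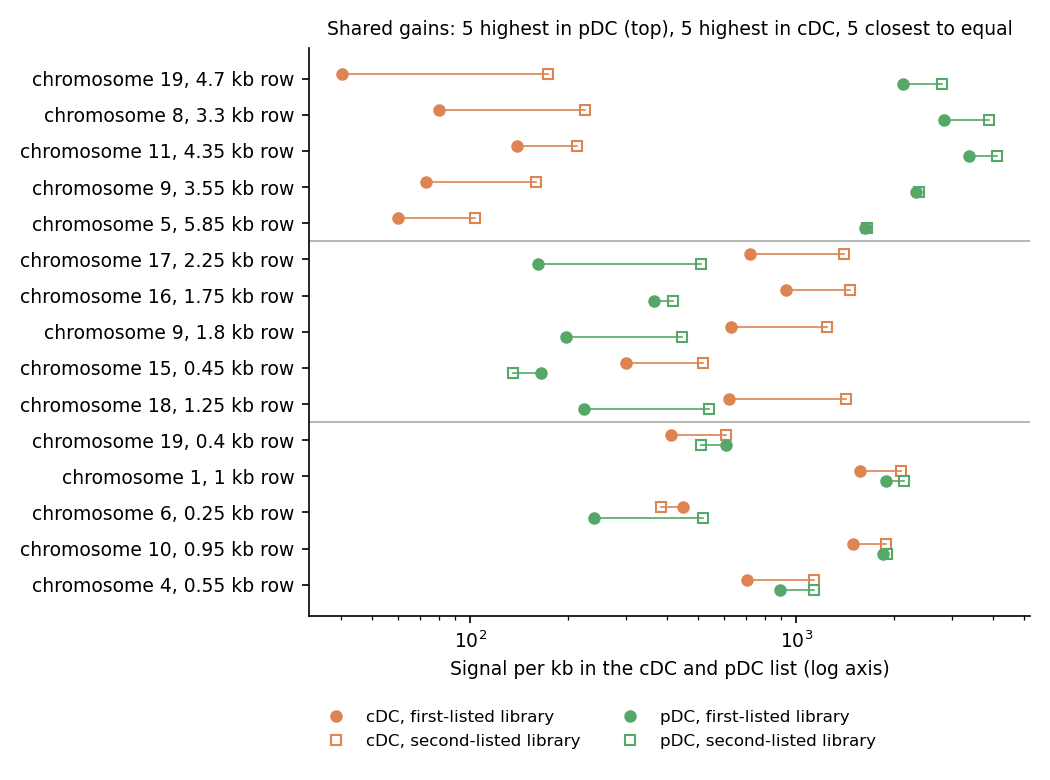
H3K27ac signal per kb (log axis) in the cDC and pDC list for the 15 shared gains named for their ratio between the mature types, with the length of the listed region beside the chromosome. Filled circles are first-listed and open squares second-listed libraries of cDC (orange) and pDC (green), and lines join the 2 libraries of a type. In the top 5 no cDC library reaches a pDC library, which their choice required.

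Most shared gains had no listed region in the MPP and CDP comparison. This held for 1634 of the 2104 (77.7%), against 20340 of the 75217 autosomal regions of the CDP and cDC list and 72.4% of the 4800 cDC gains that failed the pDC condition. The 455 gains that the rule dropped all had such a region, so the rule itself raised the share of 77.7%. It cannot be compared with the other shares, which did not pass through that step. A place that is not listed is not shown to be equal in MPP and CDP. The 470 that had one were required to differ by less than 2-fold, and at 129 of them that region covered 50% or more of the shared gain. In this list 243 were higher in MPP and 227 in CDP, with a median log2 ratio of CDP to MPP of -0.12. Both MPP libraries lay above both CDP libraries at 144 of the 470 (beside 32.4% of all autosomal regions of the list), and the reverse held at 109 (beside 26.8%). Shared gains with such a region were longer (median of 1700 bp against 750 bp), had more CDP signal (298 per kb against 119) and smaller gains (median log2 ratio of 1.34 against 1.81 in cDC and 1.83 against 2.67 in pDC).

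Some shared gains had a lower mean in CDP than in every other type, with MPP up to the 2-fold limit that the rule allowed. chr12:27153701-27155250 went from 1224 and 861 in MPP to 405 and 638 in CDP. It then reached 619 and 2524 in cDC from 500 and 748 in CDP, and 2508 and 2613 in pDC from 441 and 680. The first-listed cDC library lay between the CDP libraries there, so in cDC the gain rested on the second-listed one. Nearby, chr12:27140601-27141950 went from 391 and 324 in MPP to 159 and 205 in CDP, but its cDC libraries differed widely, with 160 and 1693 against 239 and 289 in CDP, the first-listed one below CDP. chr5:24475701-24476850 went from 431 and 407 in MPP to 165 and 256 in CDP. From 143 and 178 in CDP it reached 232 and 512 in cDC, and in pDC lay within a 7.15 kb region with 15178 and 16926 against 981 and 1090. On chr10:99062501-99063000 one MPP library carried the difference, with 231 and 78 for MPP and 60 and 95 for CDP.

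Of the shared gains with no MPP and CDP region, the 4 with the highest cDC signal were 3.5 to 6.4 kb long. chr6:129570151-129574600 went from 132 and 130 in CDP to 4185 and 10873 in cDC, a 57.0-fold difference, and from 97 and 88 in CDP to 2215 and 3014 in pDC, a 28.0-fold difference. Between the mature types it did not pass the test (limma log2 difference of -1.08 ± 0.43 (SE, n = 2 each), adjusted p = 0.0874), although both cDC libraries exceeded both pDC libraries (4216 and 10804 against 2731 and 3754). It passed with equal totals (adjusted p = 0.00858) and without the first-listed cDC library (0.0144). chr2:31841951-31845450 reached 2786 and 4411 in cDC from 651 and 726 in CDP. Over a 1.95 kb region of the cDC and pDC list it was higher in cDC than pDC (adjusted p = 0.0125 by limma). The call was lost without either pDC library, at log2 differences of -1.25 and -1.30 beside -1.28, and without the trend (adjusted p = 0.0626 by limma). chr7:152165351-152169050 reached 2557 and 5337 in cDC from 364 and 505 in CDP, and 3689 and 4196 in pDC from 315 and 478. The last was the region on chromosome 18 given with the longest.

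At the edge of the rule the difference between a shared gain and its neighbours outside was small. The 3 just inside had a smaller ratio of 2.00 each, on chr2:38872051-38873150, chr7:107375251-107375800 and chr4:12833851-12834550. The first of them reached 301 and 375 in cDC from 138 and 199 in CDP. Just outside were chr11:82832551-82835300, chr14:55027701-55028700 and chr3:58933451-58937600, where the smaller ratio was also 2.00 to 3 digits but below 2. The region on chromosome 14 reached 532 and 753 in cDC from 228 and 414 in CDP.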

How the data were processed

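Per the submitters' processing notes, reads were aligned with BWA 0.6.1 to mm9. THOR, which calls differential peaks, is named in the title of the series. The authors' deposited lists give, per region, a whole-number signal for each of 4 libraries, scaled within each list, and −log10 of a p-value, which was used only as an alternative. How they were scaled and thresholded is not given in the sources used here. Libraries of input DNA and of RNA were left out.

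Which values belong to which cell type was taken from the order in the list names. This order was tested on autosomal regions with identical bounds in 2 lists and signals of at least 20: in 10 pairs of the same type and place the values differed by a constant factor of 0.807 to 1.19 (SD of the log2 factor at most 0.060), and in the other 86 pairs the SD was at least 0.52. MPP occurs in 1 list and rests on its name and on elimination.

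A ratio divides 2 group means, each increased by 1. A region was followed into another list by the listed region with most overlapping bp. cDC and pDC were compared with limma 3.58.1 in R 4.3.3 (trend in the variance, log2(signal + 1), Benjamini-Hochberg adjustment over all 66319 regions). The script was tested on simulated data. An exact permutation test of 2 libraries against 2 cannot go below 0.333, and p-values measure only the spread between these libraries, which may be technical.

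Named regions were the 8 with the largest smaller ratio, the 6 longest, the 6 groups with most members, the 5 largest ratios between cDC and pDC each way with separate libraries and a mean of at least 100, the 5 closest to equal, 3 on each side of the threshold, the 4 highest in MPP over CDP, and the 4 highest in cDC with no MPP and CDP region. The regions, this rule and the gene lists were chosen with earlier results of these data known. The gene lists were not tested, because no mm9 annotation was used here. Alternatives covered the thresholds, pseudocounts, overlap, scaling, the limma settings and each library. Coordinates are 1-based. Scripts ran in Python 3.11.15 with pandas 2.3.3, numpy 2.4.6 and, for plots, matplotlib 3.10.9.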

Additional observations from a re-analysis of the deposited data

Results flagged for a closer look

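In the cDC and pDC list 809 of the 1757 covered shared gains (46.0%) were called higher in pDC and 20 (1.14%) higher in cDC, by limma at an adjusted p below 0.05. Over all regions of that list, which did not have to pass the rule, the shares were 23.3% and 9.32%. The rule asked for a gain over CDP in both types, so these shares describe unlike sets. Of the 809, 531 had a pDC region at least 2 times as long as the shared gain. Among the 1121 shared gains with matched windows, 274 (24.4%) and 20 (1.78%) were called. All autosomal regions of the CDP and cDC list matched in this way gave 10.9% and 18.9%. On the X chromosome, which the rule left out, 38 of 1454 regions (2.61%) of the CDP and cDC list met the rest of the rule, beside 2.80% of the autosomal regions.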

How the results depend on the processing

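The rule found 3820 regions with a minimum ratio of 1.5 and 1096 with 3, and from 1290 to 2988 when each library was left out in turn. Ratios over a CDP near 0 shrank with a pseudocount of 5, as at chr13:48610751-48612750 (log2 of 6.99 beside 7.83 for cDC over CDP). With equal autosomal totals the rule found 2013, of which 1876 were among the 2104. The median log2 difference, pDC over cDC, stayed above 0 in every alternative run. It was 0.54 with equal totals, 0.64 with matched windows, 0.19 with both together, 1.35 with an overlap of 80%, and between 0.73 and 1.5 with each library left out. Counts called higher in pDC ran from 421 (without the second-listed pDC library) to 1105, and were 542 with limma without trend and 274 with matched windows, a match that was chosen after seeing the data, as was leaving out each MPP library. Calls higher in cDC were few and unstable: 1 without trend, 149 with equal totals, and from 0 to 49 with each library left out. The 0, without the first-listed pDC library, was by limma, with 3 at an unadjusted p below 0.05. A ratio of at least 2 with separate libraries gave 848 higher in pDC and 21 higher in cDC.

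Of the 280 values of named regions between cDC and pDC under the alternatives, 13 changed sign, none of them called in the reported fit. With equal totals the log2 difference became -0.32 at chr19:32719951-32720750, -0.33 at chr1:93355151-93356850, -0.33 at chr10:81090401-81091450, -0.31 at chr4:155214701-155215550, -0.12 at chr2:38872051-38873150 and -0.15 at chr10:99062501-99063000. The other sign changes came with each library left out in turn. The log2 difference then ran from -1.58 to 0.97 at chr2:145689901-145691450 (adjusted p = 0.0496 by limma without the second-listed cDC library), from -0.12 to 0.43 at the region named on chromosome 19, from -0.061 to 0.35 on chromosome 1, from -0.016 to 0.32 at chr10:81090401-81091450, from -0.17 to 0.51 on chromosome 4, from -0.78 to 0.31 at chr6:57801351-57801700 and from -0.058 to 3.33 at chr12:27140601-27141950. With one library left out, the lone library of a type was assumed to vary like the other type. The causes were not tested. No paired analysis was possible because the listed values carry no replicate number. Depth is unknown, so counting error could not be set beside any value. The alternatives for gene starts and motif windows, which need an mm9 genome or annotation, were not run.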
